A study of Mus musculus with 6 samples.

Results

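The genes described here are 10 genes of mouse chromosome 13 that were chosen by the small p-values of their differences between the study's groups: Zfp874a, Zfp458, Gm10037, Arsk, Rfesd, Slf1, Ctsl, Nhlrc1, Bmp6 and Sdha. They are 10 of 18193 measured genes, and every probe set that the array annotation gives to 1 of them alone was taken, which made 18 of 45037 probe sets. RNA came from arcuate hypothalamus dissected from mice aged 2 weeks and was hybridised to Affymetrix Mouse Genome 430 2.0 arrays. There were 3 control arrays and 3 arrays of POMCDicerKO mice, in which Dicer, the enzyme that cuts microRNA precursors, was deleted in cells expressing pro-opiomelanocortin (Pomc). Both groups came from crosses of C57Bl/6J, FVB/N and 129 (labelled as mixed) and were fed standard chow. The sources used here give neither the Cre line nor the exact control genotype, and do not say whether a sample was 1 animal or a pool, so p-values measure the spread between these samples. Cells that express Pomc are a small share of the dissected tissue, and in bulk RNA a change in the number of cells of a type cannot be told apart from a change in RNA per cell.

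The 10 genes lie on 1 chromosome but belong to several pathways. Zfp874a, Zfp458 and Gm10037 belong to a cluster of KRAB zinc finger genes, whose proteins bind DNA through arrays of zinc fingers and recruit a repressor complex through the KRAB domain; the cluster is known from Rsl1, a repressor of male-specific liver genes. Arsk and Ctsl encode lysosomal enzymes, and Ctsl is also known to cut prohormones, Pomc among them, in secretory vesicles. Sdha and Rfesd encode an enzyme of respiration and a protein with an iron-sulphur (Rieske) domain, Slf1 serves DNA repair, Nhlrc1 serves glycogen metabolism, and Bmp6 is a secreted growth factor.

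Promoter windows from RefSeq (build GRCm38.p6), 250 bases before to 50 bases after each start, were found for 10 of 10 genes. The first 3 printed here are those of the zinc finger genes, which share the 14 letters in capitals. Zfp874a and Gm10037 were higher in POMCDicerKO, and Zfp458 was lower at 1 of its 2 probe sets.
Zfp458: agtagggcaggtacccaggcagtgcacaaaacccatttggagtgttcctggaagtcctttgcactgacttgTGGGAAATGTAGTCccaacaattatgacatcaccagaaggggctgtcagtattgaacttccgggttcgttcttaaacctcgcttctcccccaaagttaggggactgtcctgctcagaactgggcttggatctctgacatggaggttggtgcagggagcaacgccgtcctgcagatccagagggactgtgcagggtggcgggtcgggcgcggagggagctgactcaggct
Zfp874a: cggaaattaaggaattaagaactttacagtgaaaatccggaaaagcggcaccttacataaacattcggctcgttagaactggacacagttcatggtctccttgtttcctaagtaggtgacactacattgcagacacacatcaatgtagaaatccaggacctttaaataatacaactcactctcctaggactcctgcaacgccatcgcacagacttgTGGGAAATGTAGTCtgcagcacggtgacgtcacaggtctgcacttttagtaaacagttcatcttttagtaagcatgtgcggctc
Gm10037: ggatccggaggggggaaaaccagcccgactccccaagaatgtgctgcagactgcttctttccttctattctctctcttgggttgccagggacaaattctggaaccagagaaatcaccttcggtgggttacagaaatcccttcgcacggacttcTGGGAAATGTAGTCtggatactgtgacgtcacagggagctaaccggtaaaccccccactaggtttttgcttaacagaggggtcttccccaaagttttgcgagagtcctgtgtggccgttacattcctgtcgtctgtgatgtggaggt
They stand at chr13:67268945-67269244 on the minus strand, chr13:67451575-67451874 on the minus strand and chr13:67830856-67831155 on the plus strand. Searched on both strands, TGGGAAATGTAGTC was found in 0.204% of 32851 windows (67) and in 9 of the 18 Rslcan genes with a window, Rslcan ("Rsl candidate") being the older name of this zinc finger cluster. The palindrome TGACGTCA, the cAMP response element, lay in the windows of Zfp874a and Gm10037, where it is in small letters. It lay in 1.79% of all windows and in 5 of the 18 Rslcan genes with a window. Those 5 were Zfp874a, Gm10037, Zfp457, Zfp595 and Zfp874b, and the element was not found in the window of Zfp458. A match is a run of letters and was not tested as a binding site.

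Arsk and Sdha were printed next because each of their windows overlaps the window of a gene read from the opposite strand, so that the values of both neighbours can be set side by side.
Arsk: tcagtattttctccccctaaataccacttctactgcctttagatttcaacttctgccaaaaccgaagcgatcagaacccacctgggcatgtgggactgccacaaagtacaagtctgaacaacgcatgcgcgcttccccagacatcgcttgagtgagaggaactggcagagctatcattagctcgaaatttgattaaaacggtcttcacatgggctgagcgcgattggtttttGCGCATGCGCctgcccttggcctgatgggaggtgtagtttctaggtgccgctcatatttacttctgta
Sdha: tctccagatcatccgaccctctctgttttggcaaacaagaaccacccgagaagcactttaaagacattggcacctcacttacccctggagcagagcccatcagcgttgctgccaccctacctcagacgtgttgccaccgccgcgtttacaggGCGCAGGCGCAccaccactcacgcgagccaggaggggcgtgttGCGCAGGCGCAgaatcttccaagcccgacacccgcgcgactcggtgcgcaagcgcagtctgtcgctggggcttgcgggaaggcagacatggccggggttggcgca
They stand at chr13:76098611-76098910 and chr13:74350191-74350490, both on the minus strand. The capitals in Arsk mark the longest palindrome of its window, GCGCATGCGC, known as the NRF1 motif, which was found in 0.971% of all windows. The capitals in Sdha mark the longest run found more than once in its window, GCGCAGGCGCA, which was found in 1.05% of all windows and also in that of Rfesd. The window of Arsk shared 173 bases with that of Ttc37, and the window of Sdha shared 176 bases with that of Ccdc127. Over the 10 genes, the number of CG pairs in the window (the first listed where a gene had several) ran from 9 to 27. The median over all windows, later listed ones included, was 7. The later listed window of Gm10037 had 0 CG pairs.

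Values are log2 expression as deposited, and a difference is POMCDicerKO minus control, given with its standard error (SE) from limma. Groups are called apart where all 3 arrays of 1 group lie above all 3 of the other. Among the 18 probe sets, 13 were apart, 8 with POMCDicerKO higher and 5 with POMCDicerKO lower. Over all probe sets the share apart was 6.36%, with 3.14% higher and 3.22% lower. Because the same contrast chose the genes, these counts describe them and carry no test. Every gene had at least 1 probe set apart, and 5 probe sets overlapped between the groups. Of 7 probe sets with a mean under 6, 5 were apart, against 7.34% of all probe sets at that level, and of 11 with a mean of at least 6, 8 were apart, against 5.4%. Taken by the brightest probe set of each gene, 4 genes were apart with POMCDicerKO higher and 4 with POMCDicerKO lower, against 2.58% and 3.86% of all genes.

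The smallest limma unadjusted p of each gene ran from 0.000238 for Slf1 to 0.00552 for Sdha, with Gm10037 next to it at 0.0035. Just beyond Sdha lay Ccnh at a limma p of 0.00563 and Gas1 at 0.00656, and 6 genes of the chromosome outside the selection had a smaller p than Sdha, the smallest being 1.85e-05 for Ntrk2. After Benjamini-Hochberg adjustment in limma, 0 of 45037 probe sets passed 0.05, while 2.44% had an unadjusted p under 0.05. A single-gene exact permutation test of 3 against 3 arrays cannot go below 0.1.

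**Figure D1:**
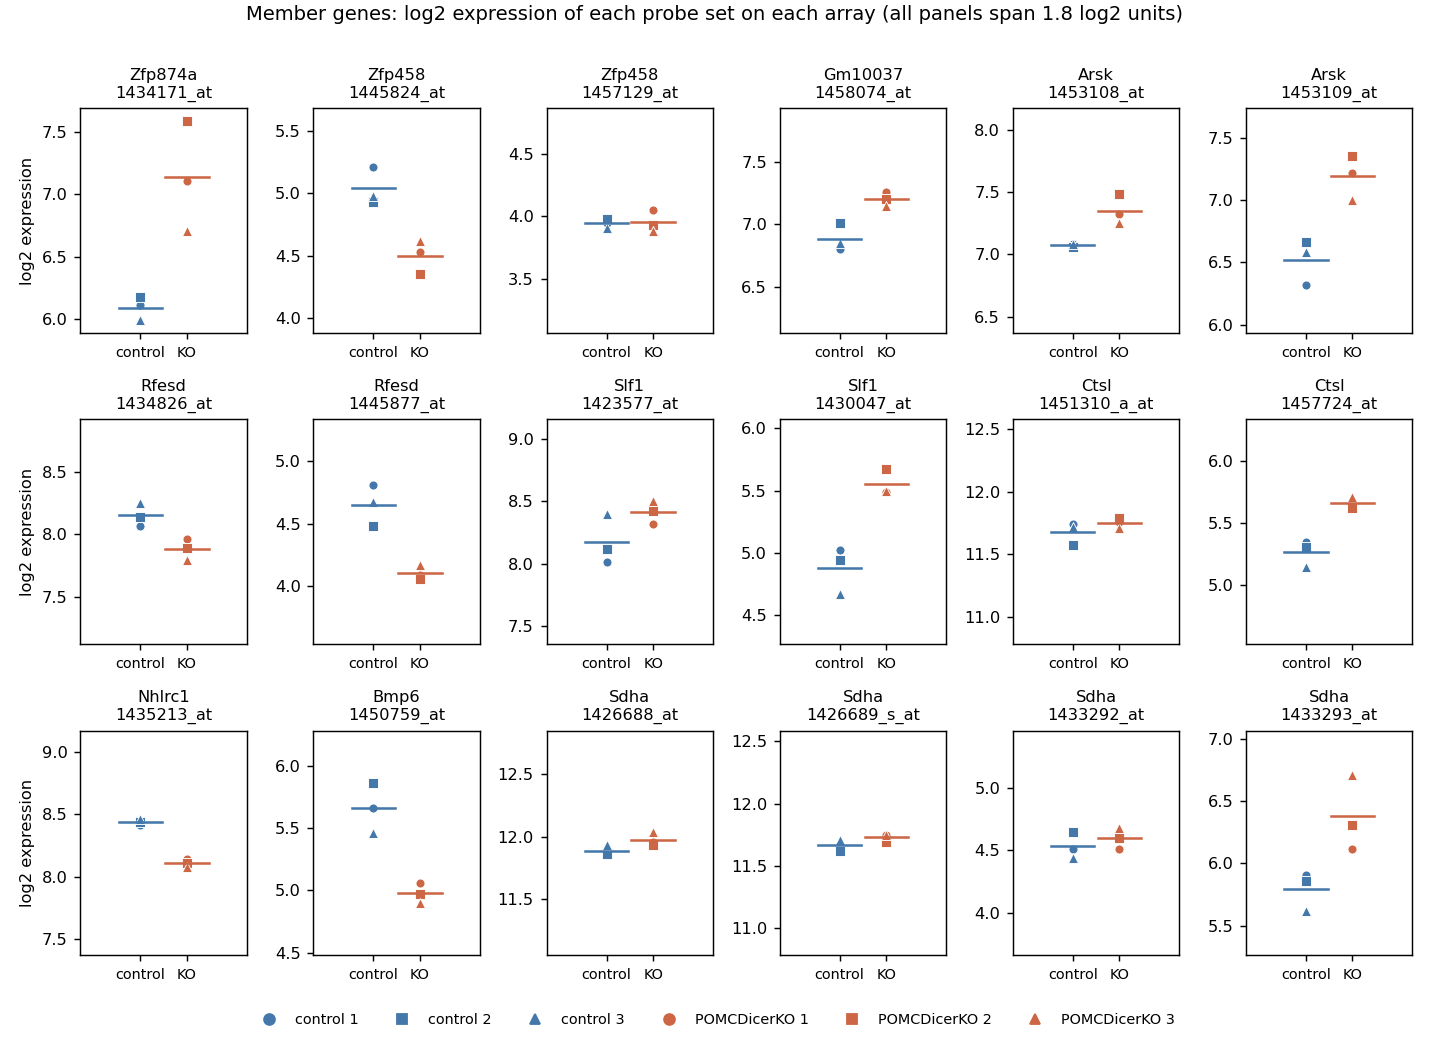
Log2 expression of the 18 probe sets on each array, 1 panel per probe set and each panel spanning 1.8 log2 units, with arrays 1, 2 and 3 as circles, squares and triangles and group means as lines. In 13 panels all arrays of a group lie to one side of the other group, and Zfp874a has the widest distance between its group means, 1.04.

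Zfp874a, a zinc finger gene of the Rsl cluster, was 2.06-fold higher in POMCDicerKO. The controls were at 6.11, 6.18 and 5.99, and the POMCDicerKO arrays were at 7.11, 7.59 and 6.71. All 3 POMCDicerKO arrays lay above all controls, by at least 0.53, but they were spread over a wider range than the controls (SD 0.44 against 0.10, n = 3 each). The difference was 1.04 (SE 0.20) and stayed between 0.82 and 1.25 when any single array was left out.

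Zfp458, the zinc finger gene 4 places before it in the order of measured genes, was lower in POMCDicerKO at 1445824_at. The controls read 5.21, 4.93 and 4.98 there, and the POMCDicerKO arrays read 4.53, 4.35 and 4.62. The groups did not overlap, and the difference was -0.54 (SE 0.10), a 1.45-fold lower level. Its other probe set, 1457129_at, did not share this pattern. It read 3.95, 3.98 and 3.91 in controls and 4.05, 3.93 and 3.88 in POMCDicerKO, near the lower end of the scale, with a difference of 0.003 (SE 0.07). The sign of that difference turned to -0.004 with arrays centred on their medians and to -0.003 with a further quantile normalisation.

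Gm10037, the last measured gene of the zinc finger cluster, was higher in POMCDicerKO. Controls were at 6.80, 7.01 and 6.85 and POMCDicerKO arrays at 7.26, 7.20 and 7.15. The groups did not overlap, and the difference of 0.32 (SE 0.08) was 1.25-fold. The gene 4930525G20Rik, whose promoter window shares 220 bases with that of Gm10037, differed by 0.01 (SE 0.11) at a level of 4.28.

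The 3 genes stand in a row of close relatives, so the other members of the family were read in the same way. RefSeq gave 19 genes an Rslcan symbol or synonym, all on chromosome 13, and 14 of them had a probe set. Outside the 3 genes, 11 family members, Rsl1 among them, had 16 probe sets, of which 2 were apart, against 6.36% of all probe sets. These were Zfp708 at 0.23 (SE 0.09) and 1 of 3 probe sets of Zfp729a at 0.19 (SE 0.09). Both were dim, with means of 4.64 and 5.21. The other probe sets of Zfp729a went the other way, at -0.11 and -0.22 with overlapping groups. Differences of the 16 probe sets ran from -0.34 for Zfp58 (-0.12 without POMCDicerKO array 3) to 0.44 (SE 0.18) for Rsl1. The groups of Rsl1 overlapped, and its direction was that of Zfp874a. Zfp874b, which lies directly after Zfp874a in gene order, read 6.86, 6.71 and 6.92 in controls and 7.16, 7.10 and 6.48 in POMCDicerKO. POMCDicerKO array 3 was the lowest of all 6 for Zfp874b, and its difference was 0.08 (SE 0.17), which turned to -0.04 without POMCDicerKO array 1. Direction thus varied within the cluster, as it did between Zfp874a and Zfp458. Close relatives of this family can share probe sequence, and whether a probe set also read a relative was not tested.

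**Figure D2:**
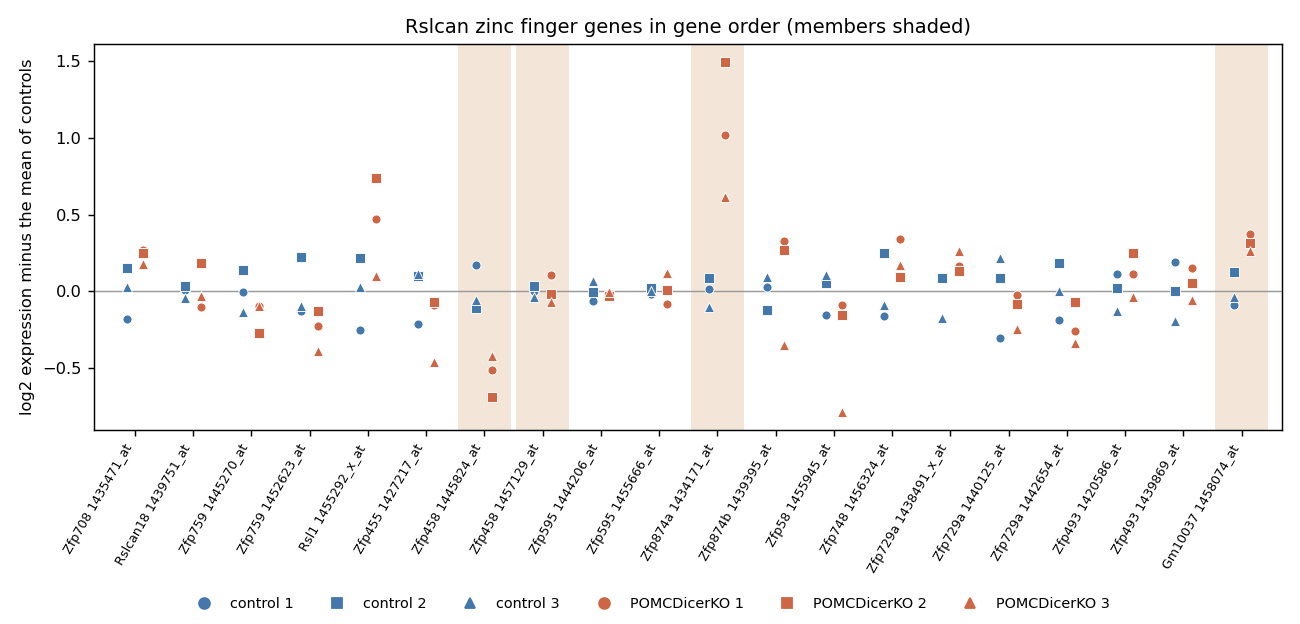
Log2 expression minus the control mean for the 20 probe sets of the Rslcan family, in gene order along chromosome 13, with 1 point per array and Zfp458, Zfp874a and Gm10037 shaded. By group mean, Zfp874a lies highest in POMCDicerKO (1.04), 1 probe set of Zfp458 lies lowest (-0.54), and the probe sets outside the shaded genes differ by -0.34 to 0.44.

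Arsk encodes arylsulphatase K, a lysosomal enzyme that removes sulphate from glucuronate in glycosaminoglycans. It was higher in POMCDicerKO at both of its probe sets. At 1453109_at controls were at 6.32, 6.66 and 6.58 and POMCDicerKO arrays at 7.22, 7.35 and 7.0, a difference of 0.67 (SE 0.12). At 1453108_at, the brighter one, controls were at 7.08, 7.06 and 7.08 and POMCDicerKO arrays at 7.32, 7.48 and 7.25, a difference of 0.28 (SE 0.08). The groups were apart at both, and POMCDicerKO array 2 was the highest at each. Ttc37, read from the opposite strand over the shared window, overlapped between the groups at 1435568_at, with a difference of -0.01 (SE 0.09), and at 1443587_at, with 0.13 (SE 0.07).

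The other sulphatases and glycosaminoglycan-degrading enzymes were looked at as a list of 17 measured genes. Of these, 3 had a positive and 14 a negative difference, with a median of -0.07 against -0.01 over all genes. Apart were 2 of them (11.8%), and for this and the lists that follow the share over all genes, each by its brightest probe set, was 6.44%. Arsg, another arylsulphatase, differed by 0.16, whereas Naglu, which trims heparan sulphate, differed by -0.30. Sulf1, which removes sulphate from heparan sulphate at the cell surface, differed by -0.28 with overlapping groups, and by -0.13 without POMCDicerKO array 3. Limma's adjusted threshold was passed by 0 of the 17, and 1 (5.88%) had an unadjusted p under 0.05, against 2.41% of all genes.

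Rfesd, a protein with a Rieske iron-sulphur domain, directly precedes Arsk in gene order and was lower in POMCDicerKO, the opposite direction. At 1434826_at controls were at 8.07, 8.14 and 8.25 and POMCDicerKO arrays at 7.96, 7.89 and 7.79, a difference of -0.27 (SE 0.08). At 1445877_at controls were at 4.81, 4.48 and 4.67 and POMCDicerKO arrays at 4.09, 4.06 and 4.17, a difference of -0.55 (SE 0.09). Both probe sets were apart, so Arsk and Rfesd were the genes with several probe sets of which each one separated the groups. Among 14 other genes of Rieske proteins and iron-sulphur cluster assembly, 6 had a positive and 8 a negative difference, the median was -0.01, and 1 was apart (7.14%).

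Slf1 encodes a factor that brings the SMC5/6 complex to damaged DNA. It lies 4 places after Arsk and was read by 2 probe sets that differed in how they separated the groups. At 1430047_at controls were at 5.02, 4.94 and 4.67 and POMCDicerKO arrays at 5.49, 5.67 and 5.50, apart, with a difference of 0.68 (SE 0.11). At 1423577_at, the brighter one, controls were at 8.01, 8.12 and 8.4 and POMCDicerKO arrays at 8.32, 8.42 and 8.50. There control 3 lay above POMCDicerKO array 1, so the groups overlapped, and the difference was 0.24 (SE 0.11), or 0.15 to 0.35 without any single array. Of 9 other genes of the SMC5/6 complex and its recruitment, 0 were apart and 0 passed limma's adjusted threshold or had an unadjusted p under 0.05. Rad18, the ubiquitin ligase known to bind Slf1, had no settled direction, with a difference of 0.20 that ran from -0.08 to 0.47 when single arrays were left out.

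Ctsl, cathepsin L, had a bright and a dim probe set. At 1451310_a_at controls were at 11.74, 11.57 and 11.72 and POMCDicerKO arrays at 11.76, 11.79 and 11.71. The groups overlapped there, and the difference was 0.08 (SE 0.07), falling to 0.03 without 1 array, control 2. At 1457724_at controls were at 5.35, 5.31 and 5.15 and POMCDicerKO arrays at 5.66, 5.62 and 5.71. These were apart, with a difference of 0.40 (SE 0.07), a 1.32-fold higher level. The small p-value of Ctsl thus came from the dim probe set and not from the bright one.

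Lysosomal cathepsins and their inhibitors other than Ctsl, 14 genes, had 9 positive and 5 negative differences, with a median of 0.01. Apart among them (14.3%) were Ctsd, the aspartyl protease cathepsin D, at -0.11 and Ctss, cathepsin S of microglia and macrophages, at 0.10, and 0 had an unadjusted p under 0.05 or passed limma's adjusted threshold. Of 8 placental cathepsins, relatives of Ctsl on the same chromosome, 0 were apart. Among them, Cts6, Cts8, Ctsq and Ctsm had means of 3.48, 3.91, 5.82 and 3.59, below the median of 6.02 over all probe sets. Microglial markers, 13 genes, had a positive difference at 11, with 1 apart (7.69%, against 6.44% of all genes). Their summed level (log2 of summed linear values) was 12.31 to 12.48 in controls and 12.50 to 12.52 in POMCDicerKO. Their mean log2 level overlapped between the groups, at 7.62 to 7.81 in controls and 7.73 to 7.82 in POMCDicerKO. None of these markers was at 0, a value this scale does not reach, and Aif1, Mrc1 and Cd163 had means under 6. The part of these markers in the values of Ctsl was not tested.

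**Figure D3:**
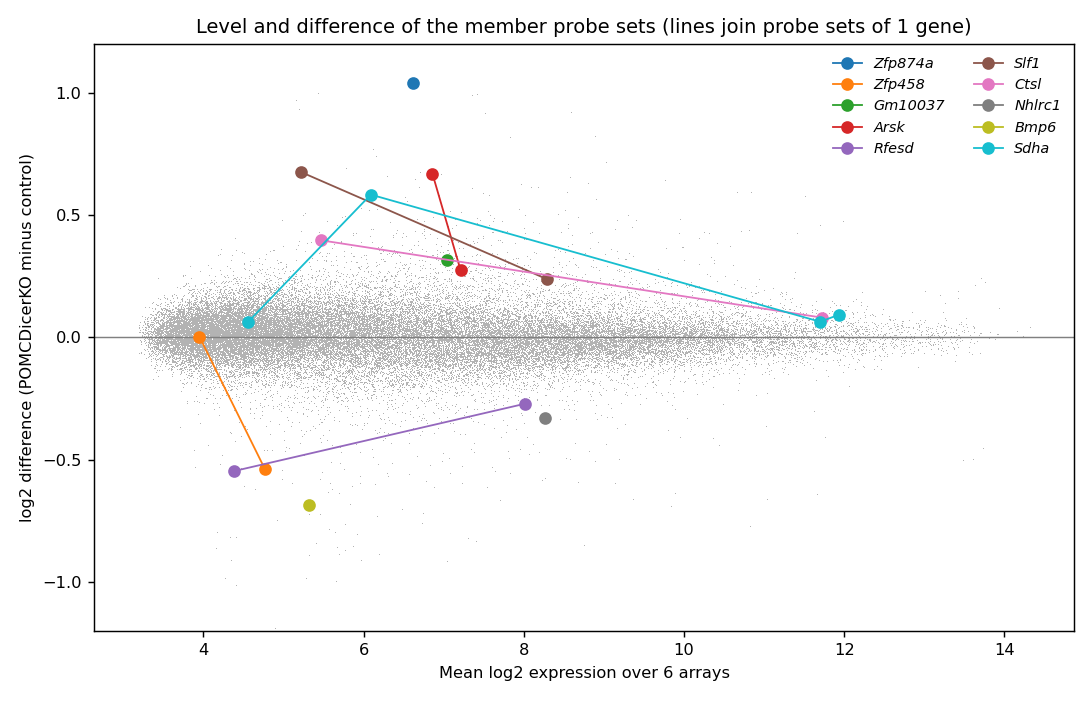
Difference between POMCDicerKO and control against mean log2 expression over all 6 arrays, with all probe sets in grey (21 beyond 1.2 in either direction are not drawn) and lines joining the probe sets of each gene. For Ctsl and Sdha the probe sets near 12 differ by less than 0.10 and a dimmer one by 0.40 and 0.58.

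Sdha encodes the catalytic subunit of succinate dehydrogenase, which is both an enzyme of the citric acid cycle and complex II of the respiratory chain. Its 4 probe sets fell into bright and dim ones. The brightest, 1426688_at, read 11.87, 11.86 and 11.93 in controls and 11.96, 11.93 and 12.04 in POMCDicerKO. The groups were apart there by only 0.003, and the difference was 0.09 (SE 0.06). The other bright probe set, 1426689_s_at, overlapped between the groups, with a difference of 0.06 (SE 0.06).

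The probe set behind Sdha's small p, 1433293_at, read 5.91, 5.86 and 5.62 in controls and 6.12, 6.31 and 6.71 in POMCDicerKO. It was apart, with a difference of 0.58 (SE 0.15), and POMCDicerKO array 3 was its highest. At 1433292_at, with a control mean near 4.53, the groups overlapped and the difference was 0.06 (SE 0.08), or 0.02 to 0.12 without any single array. Of 19 other genes of complex II and the citric acid cycle, 9 had a positive and 10 a negative difference, the median was -0.001 and 0 were apart. Ccdc127, read from the opposite strand over the shared promoter window, was apart at 1 of its 4 probe sets, with 0.20 (SE 0.06) at 1455248_at, and its 3 others differed by -0.01 to -0.03.

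Nhlrc1 encodes malin, a ubiquitin ligase that works with laforin on glycogen and is mutated in Lafora disease. It was lower in POMCDicerKO, with controls at 8.41, 8.44 and 8.46 and POMCDicerKO arrays at 8.14, 8.11 and 8.08. The groups were tightly grouped and apart (SD 0.03 in each, n = 3), and the difference was -0.33 (SE 0.06), a 1.25-fold lower level. Epm2a, which encodes laforin, differed by -0.10 with overlapping groups, and by -0.02 to -0.15 without any single array. Among 12 other genes of glycogen metabolism, 5 had a positive and 7 a negative difference, the median was -0.03, and 1 was apart (8.33%). That gene was Gaa, the lysosomal acid glucosidase, at -0.10.

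Bmp6, a secreted ligand of the BMP family, was lower in POMCDicerKO. Controls were at 5.66, 5.86 and 5.46 and POMCDicerKO arrays at 5.06, 4.97 and 4.90. The groups were apart, and the difference was -0.68 (SE 0.11), a 1.61-fold lower level. Control 3 was the lowest control, and with control 3 as the only control the difference was -0.48. Markers of meningeal cells and fibroblasts had a negative difference at 14 of 14 genes, with 2 apart (14.3%, against 6.44% of all genes). Their summed level was 12.12 to 14.09 in controls and 11.58 to 12.23 in POMCDicerKO, and control 3 was the lowest control there as well. Ptgds alone read 13.63 and 13.43 in controls 1 and 2, so it weighs heavily in those sums. The mean log2 level of the markers overlapped between the groups, at 6.94 to 8.15 in controls and 6.58 to 7.12 in POMCDicerKO. None of these markers was at 0, and Ogn, Lum, Col1a1, Slc6a13, Aldh1a2 and Foxc1 had means under 6. The part of these markers in the difference of Bmp6 was not tested.

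The rest of the BMP pathway was taken in order from ligands to targets. Of 6 other ligands, 2 had a positive and 4 a negative difference, with a median of -0.12, and 0 were apart. Bmp5 differed by -0.27, Bmp7 by -0.21 and Bmp4 by -0.17, with overlapping groups in each. Without POMCDicerKO array 3 the value of Bmp4 was 0.01, and without control 1 the value of Bmp5 was -0.12. The median of the ligands was -0.02 without POMCDicerKO array 3 and -0.21 without POMCDicerKO array 1, so it depended on single arrays.

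The 9 BMP receptors had a median of -0.02, which became 0.03 without POMCDicerKO array 3, and 0 were apart. Of 11 signal transducers and inhibitors, 1 was apart (9.09%), Smad9 at -0.10. The 7 target genes had 1 positive and 6 negative differences, with a median of -0.11, and 0 were apart. Id3, an inhibitor of helix-loop-helix transcription factors, had an unadjusted p under 0.05 among the targets, at -0.58 with overlapping groups. In all BMP lists, 0 genes passed limma's adjusted threshold.

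Along the chromosome, 8 of the 10 genes lay within 92 of its 702 measured genes, from Ctsl at place 414 to Slf1 at place 505. Bmp6 and Nhlrc1 lay apart from them at places 202 and 244. Between Zfp458 and Zfp874a were 3 measured genes, and Rfesd and Arsk had none between them. In the stretch from Ctsl to Slf1, 84 measured genes outside the selection had 44 positive and 40 negative differences, 11 of them (13.1%) were apart and 7 (8.33%) had an unadjusted p under 0.05. Over all genes, 6.44% were apart and 2.41% had an unadjusted p under 0.05, and 0 passed limma's adjusted threshold in either. The ends of the stretch are selected genes, so its shares are a description.

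**Figure D4:**
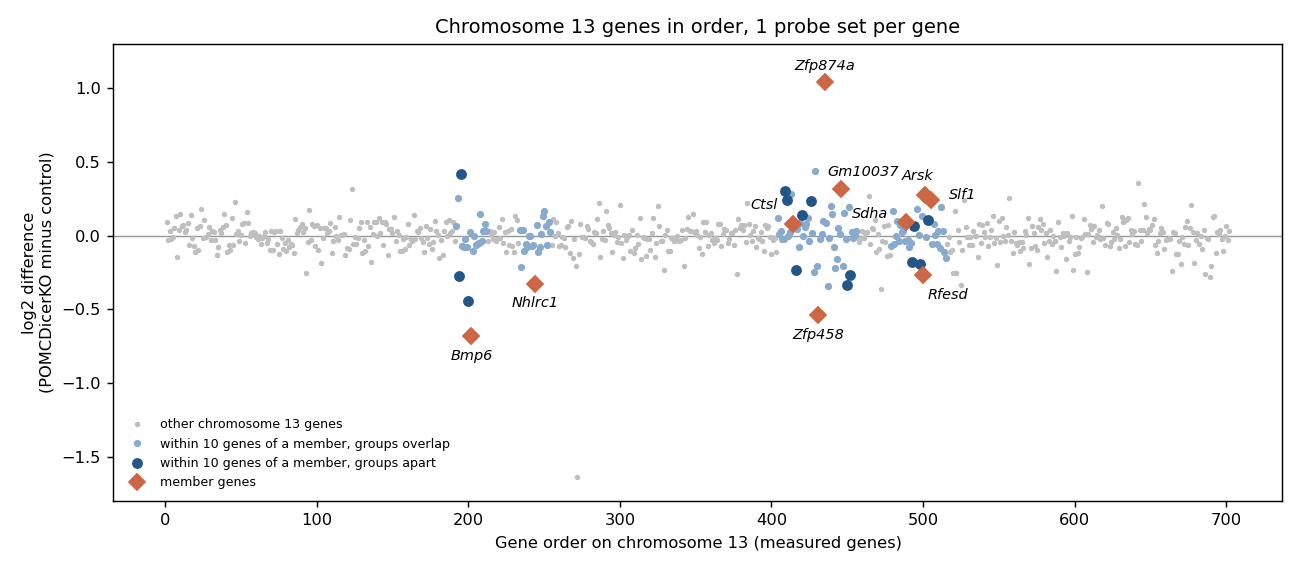
Log2 difference of each measured gene of chromosome 13, by its brightest probe set, against its place in gene order, with the 10 genes as diamonds and their neighbours in blue. The genes cluster between places 414 and 505, and positive and negative differences stand side by side there, as with Rfesd (-0.27) and Arsk (0.28).

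The genes within 10 places of any of the 10 were taken as neighbours, 122 in all and none of them selected. Their differences were balanced, 63 positive and 59 negative, with a median of 0.004, and 0 passed limma's adjusted threshold. Apart were 14 (11.5%), 7 in each direction, and 13 (10.7%) had an unadjusted p under 0.05. The share without control 1 was 9.02%, against 3.61% of all genes, and without control 2 it was 8.2%, against 1.77%. Without control 3 the count was 8 (6.56%), against 2.53%, and it was 4 (3.28%), against 2.61%, when control 3 alone stood for the controls. The share was above that of all genes when any 1 control was left out. With control 3 alone, a fit with fewer arrays, it came near that of all genes. The neighbours surround genes that the same contrast chose, so these shares are a description and carry no test. Around Nhlrc1, 0 of 20 neighbours were apart, while 4 of 20 were around Ctsl.

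Among the neighbours of Ctsl, Zfp367, a zinc finger gene, was higher by 0.30 (SE 0.09) and Habp4, a hyaluronan and RNA binding protein, by 0.24 (SE 0.08). Cdk20, a cyclin-dependent kinase 2 places from Ctsl, had a difference of -0.24 (SE 0.08). Near Gm10037, Mtrr, the reductase that keeps methionine synthase active, had -0.34 (SE 0.14; -0.18 without POMCDicerKO array 3), and 1700001L19Rik had -0.27 (SE 0.08). Near Rfesd, Arsk, Slf1 and Sdha, Rhobtb3 had -0.19 (SE 0.08; -0.13 without POMCDicerKO array 3) at its brightest probe set. A dimmer probe set of Rhobtb3, with a mean of 4.73, went the other way. It differed by 0.298, with a limma unadjusted p of 0.00367, so the direction of Rhobtb3 depended on the probe set. Cast, the inhibitor of calpain proteases, had 0.06 (SE 0.06) near Rfesd, Arsk and Sdha. Near Bmp6, Ly86, a partner of the RP105 receptor on immune cells, had 0.42 (SE 0.15; 0.26 without control 3). Below the level of 6 that the naming rule asked for, and added after their values were seen, Dsp, the desmosome protein desmoplakin 2 places from Bmp6, had -0.44 (SE 0.10), and F13a1, a subunit of coagulation factor XIII, had -0.28 (SE 0.08). Both were apart in the direction of Bmp6. The 8 named by the rule were all apart, as it required, and their directions were mixed, as were those of the genes they lie beside.

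Chromosome 13 had the largest share of genes with an unadjusted p under 0.05 of the 20 chromosomes compared, 4.27% against 1.5% to 3.63% on the others, but the selection itself is part of that share. Without the 10 genes it was 3.32%, with 1 other chromosome above it. Without the neighbours as well it was 1.75% of 570 genes. The share apart was 7.26% with the 10 genes and 6.21% without them, when 9 other chromosomes lay above it. The other chromosomes kept all their genes, so the shares and ranks of chromosome 13 without the 10 genes are lowered by construction.

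Zinc finger genes as a class were set beside the 3 selected ones. On chromosome 13, 26 others with a Zfp symbol had 13 positive and 13 negative differences and 3 (11.5%) were apart. On other chromosomes, 106 were positive and 205 negative, with a median of -0.04, and 18 of 311 (5.79%) were apart. Co-factors of KRAB zinc finger proteins, 15 genes, had 3 positive and 12 negative differences with a median of -0.05, and Atf7ip, a partner of the histone methyltransferase Setdb1, was the single one apart (6.67%), at -0.17. Without POMCDicerKO array 3 the median of the co-factors was -0.003.

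Genes with the most similar profile were found by the root mean square distance between profiles over the 6 arrays, after each gene's mean was taken out. The nearest to Zfp874a was Rsl1, in the same zinc finger cluster, at a distance of 0.34, against a spread of 0.58 of Zfp874a about its own mean. Rsl1 read 5.95, 6.42 and 6.23 in controls and 6.67, 6.94 and 6.30 in POMCDicerKO. The second array of POMCDicerKO was highest for both genes, but for Rsl1 the groups overlapped, with a difference of 0.44 (SE 0.18). Genes outside the cluster were almost as near to Zfp874a: Zswim6, at place 642 of chromosome 13, at 0.36, and Srrm4os, on chromosome 5, at 0.37.

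The profile nearest to Bmp6 was that of G530011O06Rik, at 0.13, followed by Anxa1, annexin A1, also at 0.13. Nearest to Nhlrc1 were Erdr1 and Naglu, both at 0.05, and Naglu is in the list of glycosaminoglycan-degrading enzymes given for Arsk. Nearest to Rfesd were Galnt18 at 0.05 and C130071C03Rik at 0.05, the latter on chromosome 13 at place 520. Nearest to Arsk was Ltc4s at 0.04, to Gm10037 Sc5d at 0.04, to Zfp458 Inmt at 0.10 and to Slf1 Atxn7 at 0.05. For Ctsl and Sdha, whose bright probe sets hardly varied, the nearest were Nrip1 and Ptpn3, both at 0.01. A likeness over 6 arrays of which 3 share a genotype is a description only.

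The arrays were close to one another, with array medians from 6.02 to 6.05 and correlations between arrays, across probe sets, from 0.994 to 0.997. The tissue label was checked against markers of arcuate neurons, of which 10 of 13 were measured, each with a mean of at least 6.28. Their differences were negative at all 10, with a median of -0.21. Only 2 were apart, Pomc at -0.69 and Slc6a3 at -0.37. Slc6a3 is itself a gene of chromosome 13, at place 472 in the stretch from Ctsl to Slf1. It was among the genes outside the selection with a smaller p than Sdha. Nr5a2, Tac2 and Th differed by -0.01, -0.02 and -0.03 with overlapping groups. Markers of mature oligodendrocytes had a positive difference at 11 of 11 genes, with 3 apart (27.3%) and a median of 0.42. Their summed level was 14.996 to 15.121 in controls and 15.114 to 15.531 in POMCDicerKO. Markers of endothelial cells and pericytes had a positive difference at 9 of 11, with 4 apart (36.4%). Their summed levels were 11.944 to 12.143 in controls and 12.105 to 12.263 in POMCDicerKO. The 3 measured erythroid markers had a median of -0.91 with overlapping groups, and summed levels of 7.48 to 9.38 in controls and 7.35 to 7.62 in POMCDicerKO. Of 6 choroid plexus markers, 5 had a negative difference, with a median of -0.23, and 1 was apart (16.7%). Summed levels were 9.995 to 11.248 in controls and 9.214 to 11.638 in POMCDicerKO. The part of these markers in the 10 genes' differences was not tested.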

How the data were processed

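The authors deposited log2 values for each probe set on each array. The submitters' processing notes name RMA and affy, with versions not given in the sources used here. As a method, RMA corrects background and normalises by quantiles, so a difference shared by most transcripts would be removed before deposit. The number of arrays limits the precision. Values were used as deposited, 0 sample columns were unused, and the 64 AFFX controls were dropped. The annotation gave 34945 of 45037 probe sets 1 symbol, 932 several and the other 9160 none. Symbols were updated through RefSeq (GRCm38.p6), where 34741 were found. That table gave names and gene order, and promoter windows came from RefSeq too.

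Groups were compared with limma 3.58.1 (lmFit and eBayes) in R 4.3.3, adjusted over all 45037 probe sets at 0.05. Each gene was represented by its brightest probe set where lists, neighbours and chromosomes were counted. The scripts were tested on simulated data. The 10 genes, the lists, the markers and the alternatives were chosen with earlier results of these data known. Named genes were all members, up to 4 of each list with the smallest p, up to 3 neighbours of each member (smallest p among those apart with a mean of at least 6), and the 3 nearest profiles, of which mostly the first is given. Alternatives were centring, further quantile normalisation, filters on low levels, other priors, array weights, a replicate block, gene means, and leaving out each array. The use of control 3 as the only control and the Rslcan family list were added after seeing the data. The labels give no batch, so none was tested.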

Additional observations from a re-analysis of the deposited data

How the results depend on the processing

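Of 176 values of the 18 probe sets under other settings, 2 changed sign, and of 108 values without 1 array, 2 did, in each case at Zfp458 1457129_at. With the mean of a gene's probe sets, differences were -0.27 for Zfp458, 0.47 for Arsk, -0.41 for Rfesd, 0.46 for Slf1, 0.24 for Ctsl and 0.20 for Sdha. With control 3 as the only control, assumed to vary like the POMCDicerKO arrays, they were -0.37 for Rfesd 1434826_at, 0.018 for Slf1 1423577_at, 0.88 for Slf1 1430047_at, 0.51 for Ctsl 1457724_at, -0.48 for Bmp6 and 0.021 for Sdha 1426689_s_at. With that control, 1 probe set passed limma's adjusted threshold, 20716 were apart and 1868 had an unadjusted p under 0.05; of the neighbours, 66 were apart and 4 had an unadjusted p under 0.05, and 44.4% of chromosome 13 genes were apart. Fewer arrays leave fewer ways to overlap, by construction. With probe sets at or above the median level, or with a mean of at least 6, fewer were tested and counts fell: apart 1211 and 1226, unadjusted p under 0.05 419 and 427, the genes' own probe sets apart 8 and 8, neighbours apart 9 and 9. The share apart was lower as well, at 5.4% of 22713 probe sets with a mean of at least 6, against 6.36% of all 45037. Without moderation, 8 neighbours had an unadjusted p under 0.05, with array weights the median of BMP receptors was 0.013, and with 20 genes on each side 23 neighbours were apart; the cause was not tested.

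Leaving out 1 array gave 0 to 2 probe sets past the adjusted threshold (1 without control 1 and 2 without control 3), 5922 to 8633 apart and 874 to 2075 with an unadjusted p under 0.05. Neighbours apart were 19 to 33 and with an unadjusted p under 0.05 8 to 14; chromosome 13 genes apart were 13.8% to 20.9%. List medians were -0.21 to -0.02 for BMP ligands, -0.032 to 0.032 for receptors, -0.184 to -0.065 for targets and -0.046 to -0.003 for KRAB co-factors. Same-numbered arrays had deviations correlated at 0.13, 0.08 and 0.12 (pairs 1, 2 and 3), and each array correlated best with its own number, a hint from the data and not the design. The samples share only a number. The replicate block left 0 probe sets past limma's adjusted threshold and raised those with an unadjusted p under 0.05 from 1098 to 1396; among neighbours it was 13.9% against 3.20% of all genes.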
